A study of Mus musculus with 12 samples.

Results

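Axon guidance ligands and receptors form 4 signalling systems, semaphorins with plexins, ephrins with Eph receptors, Slits with Robos, and netrins with DCC, neogenin and the UNC5 receptors. They were taken here by gene symbol as the protein-coding genes of semaphorin classes 3 to 7, the plexins, the ephrins and Eph receptors, Slit1 to Slit3, Robo1 to Robo4, the netrins Ntn1 to Ntn5, Unc5a to Unc5d, Dcc and Neo1. The rule found 68 genes among 35523 in the files, and 64 of them reached 10 counts over the 12 libraries and were tested among 18028 genes. Epha6, Epha8, Epha10 and Ntn5 held 1 to 3 counts in all and were not tested.

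RNA was sequenced from primary cardiac fibroblasts of C57BL/6J mice, adults of both sexes, held in low serum before treatment. Cells given siRNA against histone H1.0 and then TGF-β (10 ng/ml) are called siRNA + TGF-β, and those then given vehicle siRNA + vehicle. Cells given a scramble siRNA are called scramble + TGF-β and scramble + vehicle. Each of these 4 groups had 3 biological replicates, and libraries 1 to 3 of a group are its replicates. All cells were transfected, and loss of H1.0 and other effects of the siRNA cannot be told apart in these groups.

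Semaphorins are secreted or membrane-bound ligands that act through plexins, receptors that switch small GTPases, and class 3 semaphorins also use neuropilins as co-receptors. Ephrins sit in the membrane and bind Eph receptor tyrosine kinases on the neighbouring cell, so that both cells can receive a signal. Slits are large secreted proteins bound by Robo receptors, and netrins are laminin-related proteins that attract through DCC or neogenin and repel through UNC5 receptors. Outside the nervous system these proteins take part in vessel growth, cell migration and the shaping of the heart.

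The promoters of 4 genes that the comparisons turn on are shown from 250 bases before to 50 bases after the annotated start, 5′ to 3′ on the strand of the gene (RefSeq, GRCm38.p6). They are Robo2, whose TGF-β response differed between siRNA and scramble cells (chr16:74411776-74412075, minus strand, 1 of 3 windows and the nearest, by 291 bases, to the start of its most abundant transcript), Neo1, with the deepest drop with siRNA among those above a mean of 100 counts (chr9:59036392-59036691, minus strand), Sema7a, with the steepest rise with TGF-β among those (chr9:57939862-57940161, plus strand), and Epha7, the Eph receptor lower with siRNA in both media (chr4:28812881-28813180, plus strand).
Robo2: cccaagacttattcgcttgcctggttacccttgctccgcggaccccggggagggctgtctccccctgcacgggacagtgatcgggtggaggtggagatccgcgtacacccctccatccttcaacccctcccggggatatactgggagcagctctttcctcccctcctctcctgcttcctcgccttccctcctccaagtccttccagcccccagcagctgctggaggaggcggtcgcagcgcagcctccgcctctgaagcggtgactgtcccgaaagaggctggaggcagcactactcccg
Neo1: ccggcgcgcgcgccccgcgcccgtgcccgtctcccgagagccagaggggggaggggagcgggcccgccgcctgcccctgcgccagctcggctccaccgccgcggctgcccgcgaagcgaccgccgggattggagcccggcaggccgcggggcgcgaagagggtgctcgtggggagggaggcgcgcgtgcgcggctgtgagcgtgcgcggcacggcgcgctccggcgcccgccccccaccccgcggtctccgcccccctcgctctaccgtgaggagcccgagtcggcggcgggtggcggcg
Sema7a: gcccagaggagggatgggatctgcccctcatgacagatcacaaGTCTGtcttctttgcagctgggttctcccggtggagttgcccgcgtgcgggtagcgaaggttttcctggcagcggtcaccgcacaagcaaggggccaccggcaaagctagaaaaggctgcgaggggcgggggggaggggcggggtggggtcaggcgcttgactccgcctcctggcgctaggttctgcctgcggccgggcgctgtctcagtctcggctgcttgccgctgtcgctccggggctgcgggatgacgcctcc
Epha7: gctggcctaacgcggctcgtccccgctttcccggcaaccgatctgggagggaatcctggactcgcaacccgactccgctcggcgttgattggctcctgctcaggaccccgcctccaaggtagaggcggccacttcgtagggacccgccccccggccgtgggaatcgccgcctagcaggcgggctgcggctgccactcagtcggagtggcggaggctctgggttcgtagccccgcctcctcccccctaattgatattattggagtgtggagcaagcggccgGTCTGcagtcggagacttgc
Capitals mark the SMAD motif CAGAC, which reads GTCTG on the other strand. It occurred once each in the Sema7a and Epha7 windows, and these letters were not in the Robo2 and Neo1 windows. AP-1 (TGANTCA), TEAD (CATTCC) and the CArG box of SRF, searched on both strands as well, had no match in the 4 windows, so no motif overlapped another there. Of the 64 tested genes, 54 had a window, and the SMAD motif was in 28 of these (51.9%), against 49.6% of all 32851 promoters. AP-1 was in 1.85% of the guidance windows and 7.81% of all, TEAD in 13% and 14.7%, and the CArG box in 1.85% and 1.63%. The Neo1 window was 82.7% GC with 54 CpG dinucleotides, and the Robo2 window 65% GC with 17.

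The libraries held from 19.8 M to 36.1 M estimated counts matched to genes, and the siRNA + TGF-β libraries (36 M to 36.1 M) and library 3 of siRNA + vehicle (35.3 M) were the deepest. H1f0, which encodes histone H1.0, had 843, 876 and 510.3 normalized counts in siRNA + TGF-β and 980.1, 1075 and 600.5 in siRNA + vehicle, against 2832, 2922 and 2807 in scramble + TGF-β and 2515, 3033 and 2648 in scramble + vehicle. Its log2 fold change with siRNA was −1.94 ± 0.22 (adjusted p = 5.8e-05) under TGF-β and −1.63 ± 0.22 (adjusted p = 2.0e-04) in vehicle (SE, edgeR quasi-likelihood test with Benjamini-Hochberg adjustment, as for every adjusted p below unless another tool is named). Of the marker lists, 10 fibroblast genes summed to 11199 to 12837 TPM per library. The 10 macrophage genes, each above a median of 1 TPM, summed to 586 to 875 TPM in siRNA + TGF-β, 1076 to 1166 in siRNA + vehicle, 965 to 996 in scramble + TGF-β and 1307 to 1446 in scramble + vehicle. Endothelial genes summed to 39.3 to 79.3 TPM, with Sox17 and Cldn5 under 1, and mesothelial genes to 9.54 to 24.4, with Krt19 under 1. Mural genes summed to 10.3 to 24.9 TPM with siRNA against 24.2 to 71.4 with scramble (Kcnj8 and Abcc9 under 1), cardiomyocyte genes to 12.8 to 21.5 against 130 to 192 (Myh6, Actn2 and Ryr2 under 1), and glial and neuronal genes to 196 to 429 against 62.4 to 241, with 7 of those 9 under 1. In bulk RNA, fewer cells of a type and less RNA per cell cannot be told apart, and the part of these cells in the results below was not tested.

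TPM is scaled to transcript length and can be set side by side between genes. By its mean over the 12 libraries the most abundant was the plexin Plxnb2 at 193 ± 30.3 TPM (SD), followed by the netrin receptor Unc5b at 172 ± 39, the ligand Slit2 at 123 ± 53, Plxna1 at 116 ± 13.5 and Slit3 at 83.5 ± 51.6. Neighbours in this order differed by less than the larger SD of the pair. The order of the means was not the same in every group (SD, n = 3). In siRNA + TGF-β Slit3 (38.3 ± 23.6 TPM) was below Ephb3 (44.1 ± 13.1) and Sema3d (42.8 ± 5.9). In scramble + TGF-β Unc5b (194 ± 14.1) and Slit2 (178 ± 34.7) were above Plxnb2 (160 ± 8.64). With vehicle Slit3 was above Slit2 in siRNA cells (89.3 ± 43.6 against 62.4 ± 26.4) and in scramble cells (140 ± 56.3 against 102 ± 22.9). Except for Unc5b and Plxnb2, these pairs differed by less than the larger SD. Sema3d, Neo1, Ephb3, Plxnd1 and Robo1 came next, at means of 53, 52.7, 41.3, 33.6 and 31 TPM. Of the 68 genes, 27 had a mean of at least 10 TPM and 18 were under 1, the attractive netrin receptor Dcc among them, with no count in the siRNA libraries. The 6 netrin receptors together reached 226 ± 10.3 TPM in siRNA + TGF-β and 138 ± 22.6 in siRNA + vehicle, against 299 ± 14.1 in scramble + TGF-β and 262 ± 35.1 in scramble + vehicle (SD, n = 3). The 8 ephrins reached 72.5 ± 11.2 and 76.3 ± 7.73 TPM in siRNA cells with TGF-β and vehicle, against 110.3 ± 5.42 and 102 ± 7.86 in scramble cells. Both sums were lower in every siRNA library than in every scramble library of the same medium, as were the semaphorin and Eph receptor sums. Plexins reached 425 ± 7.95 and 395 ± 4.71 TPM in siRNA cells with TGF-β and vehicle. In scramble cells the plexin sums were 395 ± 23.1 and 390 ± 60.2. Slit sums overlapped in both media, and Robo and netrin sums under TGF-β. Within the netrin receptors Neo1 had 16.2 TPM in siRNA + TGF-β against 98.6 in scramble + TGF-β, while Unc5b had 206 against 194. In vehicle both were lower, at 14 against 82 and 119 against 170.

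**Figure D1:**
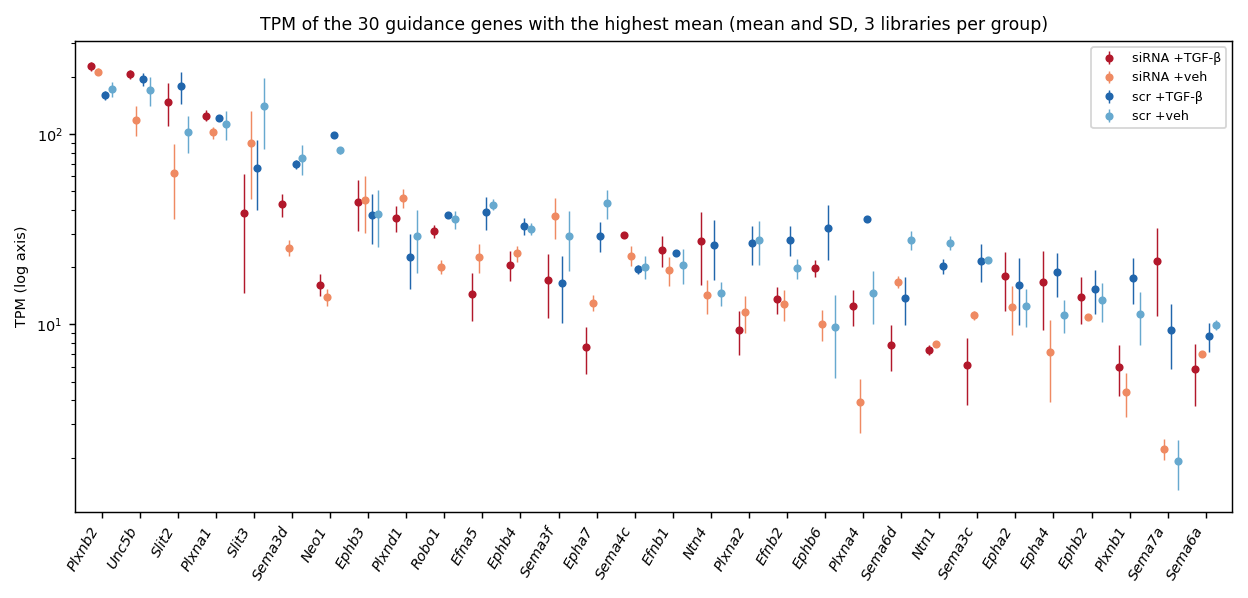
TPM on a log axis of the 30 guidance genes with the highest mean, as group mean and SD of 3 libraries. Plxnb2 lies at 227 TPM in siRNA + TGF-β and 160 in scramble + TGF-β, and Neo1 at 16.2 and 14 TPM in siRNA cells with TGF-β and vehicle, against 98.6 and 82 in scramble cells.

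With siRNA more guidance genes were lower than higher. Under TGF-β 17 of the 64 were lower (26.6%), against 11.3% of all genes tested, and 4 were higher (6.25%), against 13% of all, at an adjusted p under 0.01. In vehicle 16 were lower (25%), against 11.2% of all genes, and 4 were higher (6.25%), against 13.4%. The median log2 fold change of the 64 was −0.22 under TGF-β and −0.40 in vehicle, against 0.04 and 0.00 over all genes, and −0.15 and −0.39 without Sema5b and Dcc, which had a group with no count. Sema3c, Sema3d, Sema3e, Sema5b, Plxna2, Plxna4, Plxnb1, Efna5, Epha7, Ntn1, Neo1 and Unc5c were lower in both media, 12 genes or 18.8% of the 64, against 7.93% of all genes. Plxnb2 and Plxnd1 were higher in both, 3.12% against 9.56% of all genes. The siRNA comparisons in the 2 media share no library, but they come from the same fit, and same-numbered libraries deviated together across groups. They are therefore not independent.

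TGF-β moved fewer of them. In scramble cells 6 rose (9.38%), against 10.5% of all genes, and 3 fell (4.69%), against 7.94%. In siRNA cells 10 rose (15.6%), against 9.14% of all genes, and 2 fell (3.12%), against 6.6%. Sema7a, Plxna4 and Efna3 rose, and Sema6d and Plxnc1 fell, in both. The TGF-β response itself differed between siRNA and scramble cells for 1 gene in the higher direction, Robo2, against 0.0333% of all genes, and for 0 in the lower, against 0.0111%. At an unadjusted p under 0.05 this difference was reached by 11 of the 64 (17.2%), against 11.9% of all genes. DESeq2 called 2, Robo2 and Sema3d, against 1.77% of the genes to which it gave an adjusted p, and limma-voom called 0, against 0.0222%.

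**Figure D2:**
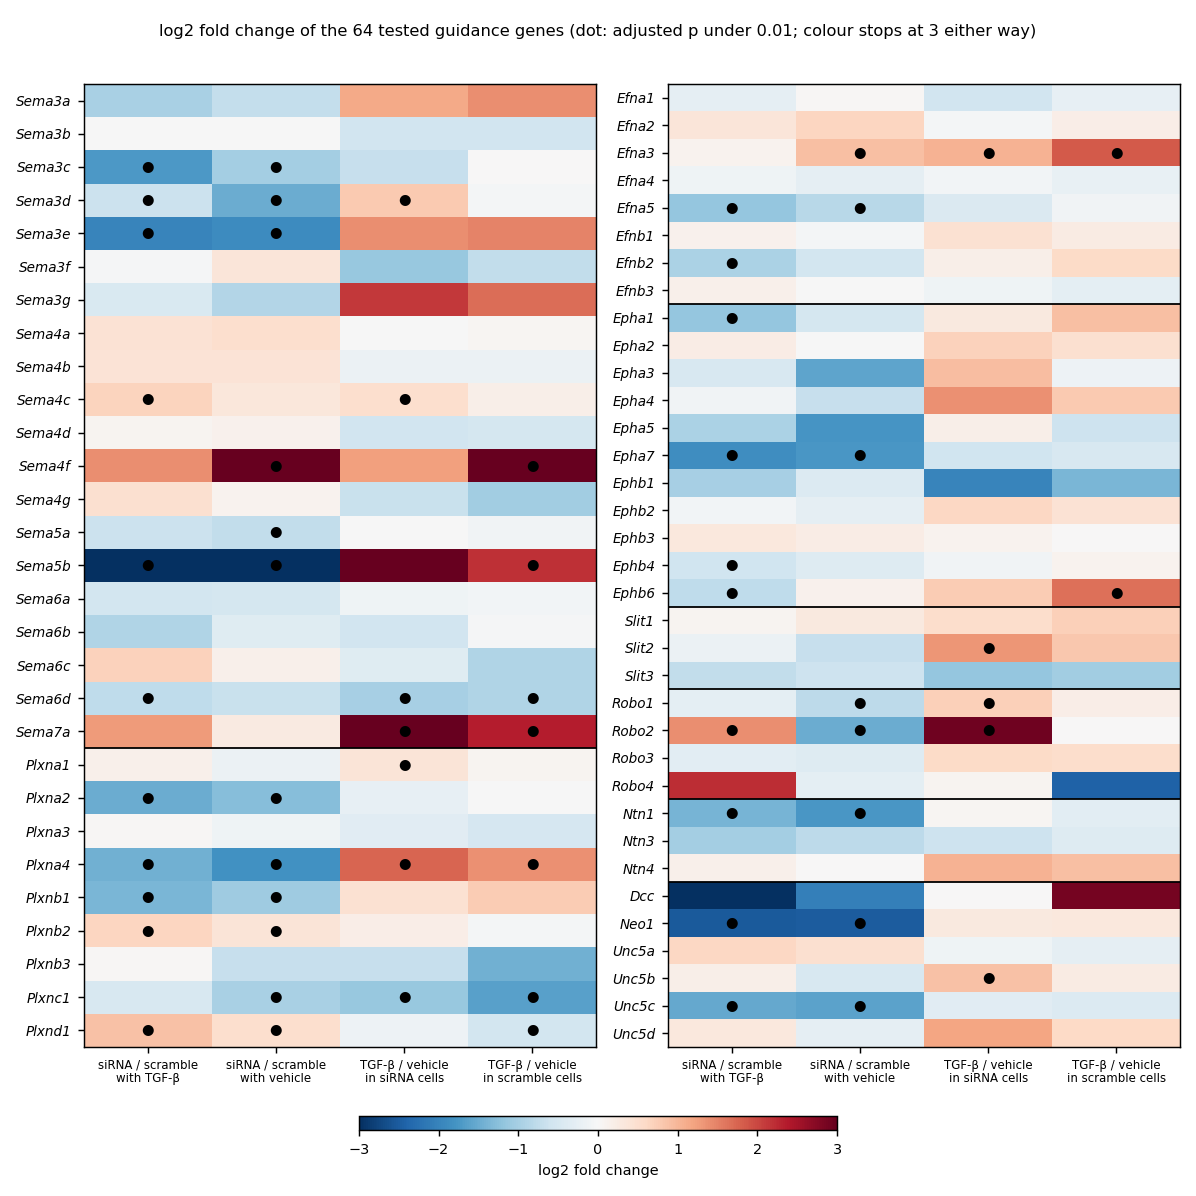
Log2 fold change of the 64 tested genes, grouped by family, in 4 comparisons, with a dot where the adjusted p was under 0.01 and colour capped at 3. The siRNA columns hold 17 dots on lower and 4 on higher values under TGF-β, and 16 and 4 in vehicle. Some strong colours without a dot, as for Dcc and Robo4, belong to genes with few counts. Others belong to genes with more counts, such as Epha3 with siRNA in vehicle (−1.57 ± 0.47, SE).

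Libraries with the same replicate number deviated together, and with that number as a block in the fit more genes passed. With siRNA under TGF-β 25 were then lower (39.1%), against 16% of all genes, and 9 higher (14.1%), against 17.6%. In vehicle 23 were lower (35.9%), against 16.2%, and 7 higher (10.9%), against 17.4%. TGF-β raised 15 in scramble cells (23.4%), against 15.4% of all genes, and lowered 10 (15.6%), against 13%. In siRNA cells it raised 20 (31.2%), against 14.2%, and lowered 6 (9.38%), against 12.6%. The response differed again for Robo2 alone, 1 higher against 0.41% of all genes and 0 lower against 0.244%. Of the 46 guidance genes with a group mean of at least 100 normalized counts, 16 (34.8%) had their lowest value in library 3 of all 4 groups, Slit2, Slit3, Epha3, Epha4 and Plxna2 among them, against 13.1% of 11919 genes at that level. Sema3e, Epha1, Epha2 and Ntn4 had their highest value there (8.7%, against 12.2%).

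Robo2, a receptor for Slits, lies on chromosome 16 from 73891839 to 74411825 on the minus strand of GRCm38. It had 708, 485 and 592 normalized counts in siRNA + TGF-β and 57.3, 72.2 and 104 in siRNA + vehicle. In scramble cells Robo2 had 206, 211 and 259 with TGF-β and 265, 181 and 219.9 with vehicle. The siRNA + TGF-β libraries were above, and the siRNA + vehicle libraries below, every scramble library. TGF-β raised Robo2 in siRNA cells by 2.92 ± 0.23 (adjusted p = 1.5e-05) on the log2 scale, and in scramble cells its value was 0.02 ± 0.22 (adjusted p = 0.963). With siRNA it was higher under TGF-β, by 1.40 ± 0.21 (adjusted p = 4.1e-04), and lower in vehicle, at −1.50 ± 0.23 (adjusted p = 4.0e-04), a pair of calls found in 0.0277% of all genes. The difference between the TGF-β responses was 2.90 ± 0.31 (adjusted p = 0.00592). That call was lost without any 1 of the libraries except library 3 of siRNA + vehicle and library 3 of scramble + vehicle (adjusted p = 0.0103 to 0.0331), and with limma-voom (adjusted p = 0.0112) or an offset for transcript length (adjusted p = 0.0389), while its 3 pairwise calls held without any 1 library.

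Robo1, the most abundant Robo, had 3195, 2562 and 3068 normalized counts in siRNA + TGF-β and 1992, 1635 and 1777 in siRNA + vehicle. In scramble cells Robo1 had 3785, 3393 and 3601 with TGF-β and 3470, 2918 and 2943 with vehicle. The siRNA + vehicle libraries were the lowest 3 of the 12. Robo1 was lower with siRNA in vehicle, at −0.79 ± 0.10 (adjusted p = 1.6e-04), and under TGF-β the value was −0.29 ± 0.10 (adjusted p = 0.0492, and 0.0014 with the block). TGF-β raised it in siRNA cells by 0.71 ± 0.10 (adjusted p = 6.4e-04), against 0.21 ± 0.10 (adjusted p = 0.154) in scramble cells, and the difference of the responses did not pass (0.50 ± 0.15, adjusted p = 0.182). Robo3, a divergent Robo of commissural axons, and Robo4, the Robo of endothelium, had group means of 0.205 to 0.475 and 0.06 to 0.415 TPM and were not called.

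Slit2, a ligand of both, had 13539, 17494 and 11520 normalized counts in siRNA + TGF-β and 5003, 7676 and 4239 in siRNA + vehicle. In scramble cells Slit2 had 15383, 19309 and 13350 with TGF-β and 8079, 11626 and 7700 with vehicle. TGF-β libraries lay above vehicle libraries in each siRNA arm, and library 2 was the highest of each group. TGF-β raised Slit2 in siRNA cells by 1.33 ± 0.25 (adjusted p = 0.00244), a call lost without library 1 of siRNA + vehicle (adjusted p = 0.014). In scramble cells the value was 0.81 ± 0.24 (adjusted p = 0.0265, and 9.5e-06 with the block), and with siRNA in vehicle −0.70 ± 0.24 (adjusted p = 0.0443, and 1.4e-05 with the block), which also passed without library 2 of siRNA + vehicle (adjusted p = 0.00823). Slit3 was not called, with 2408, 4620 and 1198 normalized counts in siRNA + TGF-β and 5992, 9045 and 3418 in siRNA + vehicle. In scramble cells Slit3 had 5192, 5917 and 2606 with TGF-β and 11627, 11747 and 4906 with vehicle. Its replicates spread widely, and library 3 was the lowest of each group. TGF-β gave −1.16 ± 0.52 (adjusted p = 0.122, and 8.2e-05 with the block) in siRNA cells and −1.04 ± 0.52 (adjusted p = 0.154, and 2.8e-04 with the block) in scramble cells, and siRNA −0.74 ± 0.52 (adjusted p = 0.311, and 9.1e-04 with the block) under TGF-β and −0.62 ± 0.52 (adjusted p = 0.396, and 0.00523 with the block) in vehicle. Slit1, the Slit best known from the brain, had group means of 0.234 to 0.53 TPM.

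**Figure D3:**
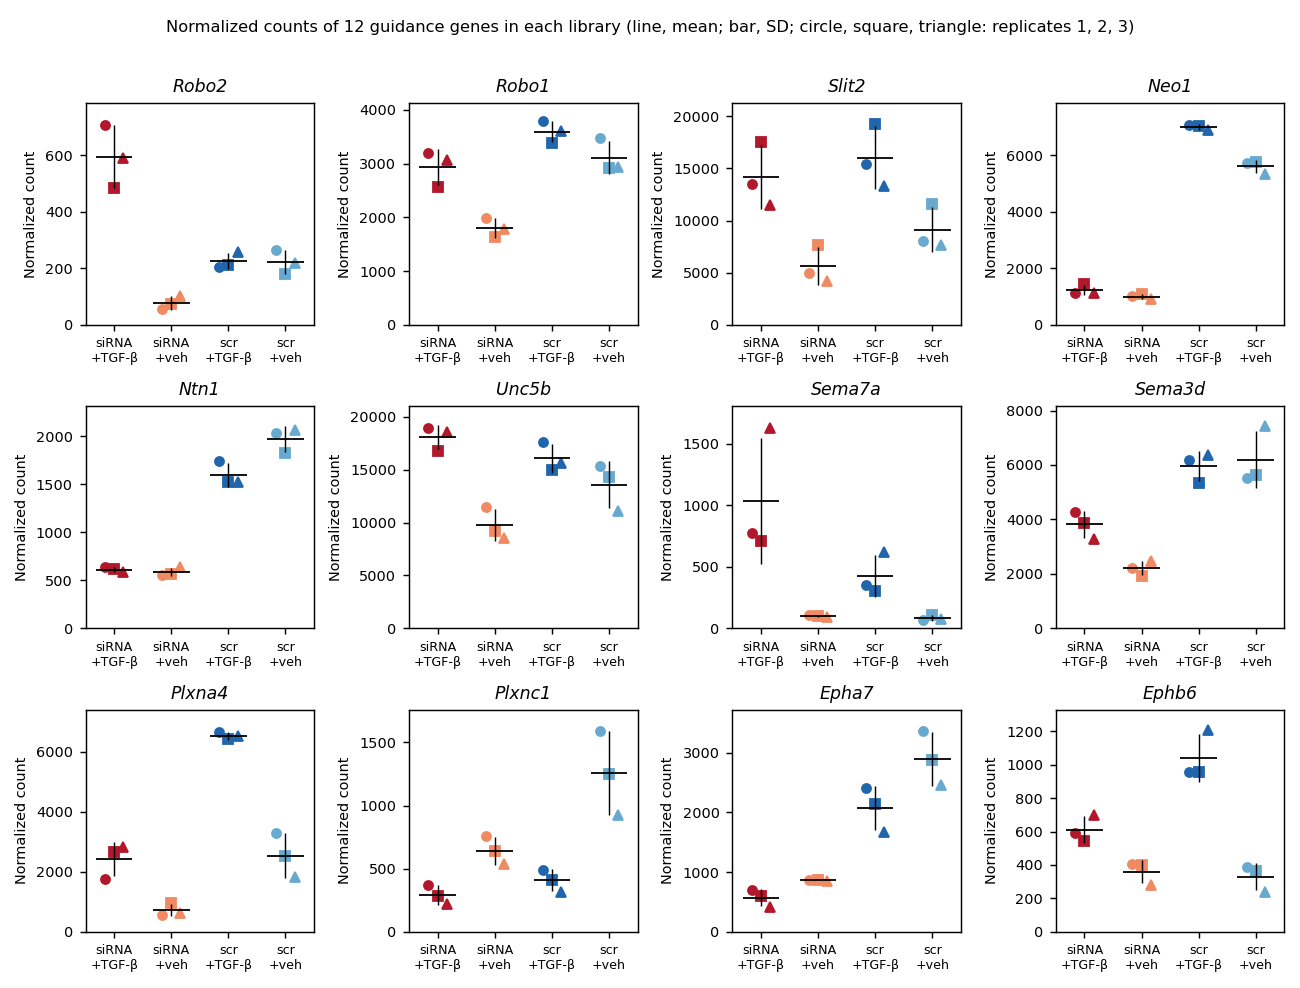
Normalized counts of 12 guidance genes in each library, with group mean and SD, from siRNA + TGF-β on the left to scramble + vehicle on the right. Robo2 lies at 485 to 708 in siRNA + TGF-β and 57.3 to 104 in siRNA + vehicle, Neo1 at 1435 or less in siRNA libraries and 5326 or more in scramble libraries, and Sema7a at 305 or more with TGF-β and 112 or less with vehicle.

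Neogenin (Neo1), a receptor for netrins and for repulsive guidance molecules, lies on chromosome 9 from 58874687 to 59036441 on the minus strand of GRCm38. It had 1118, 1435 and 1131 normalized counts in siRNA + TGF-β and 1015, 1078 and 908 in siRNA + vehicle. In scramble cells Neo1 had 7077, 7031 and 6890 with TGF-β and 5739, 5743 and 5326 with vehicle. The siRNA and scramble libraries were far apart in both media. With siRNA the log2 fold change was −2.51 ± 0.10 (adjusted p = 1.8e-07) under TGF-β and −2.49 ± 0.10 (adjusted p = 1.8e-07) in vehicle, calls that held without any 1 library. TGF-β gave 0.30 ± 0.10 (adjusted p = 0.041, and 0.00941 with the block) in siRNA cells and 0.32 ± 0.10 (adjusted p = 0.0249, and 0.004 with the block) in scramble cells, and the second also passed without library 2 of siRNA + TGF-β (adjusted p = 0.00613).

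Its main coding transcript Neo1-202 starts 16 bases from the start used for the window shown. It had 9.55, 11.8 and 8.8 TPM in siRNA + TGF-β and 7.94, 7.7 and 7.24 in siRNA + vehicle, against 61.4, 65.3 and 59 in scramble + TGF-β and 49, 49.4 and 45.2 in scramble + vehicle. Its share of the summed TPM of the gene stayed between 52.6% and 63.5% in the 12 libraries. The annotated retained-intron transcript Neo1-203 took 22.1%, 3.94% and 17% in siRNA + TGF-β and 15.7%, 15.4% and 17.4% in siRNA + vehicle, against 5.25%, 4.52% and 4.02% in scramble + TGF-β and 6%, 2.49% and 4.14% in scramble + vehicle. In vehicle these groups did not overlap, and under TGF-β library 2 of the siRNA cells lay below the 3 scramble values, with the other 2 above them. The coding transcript Neo1-205 took 0%, 10.9% and 0% in siRNA + TGF-β and 7.68%, 0% and 0% in siRNA + vehicle, against 11.2%, 13% and 15.3% in scramble + TGF-β and 13.9%, 14.8% and 16.1% in scramble + vehicle. These shares are Salmon's division of reads that transcripts have in common, and were not tested.

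**Figure D4:**
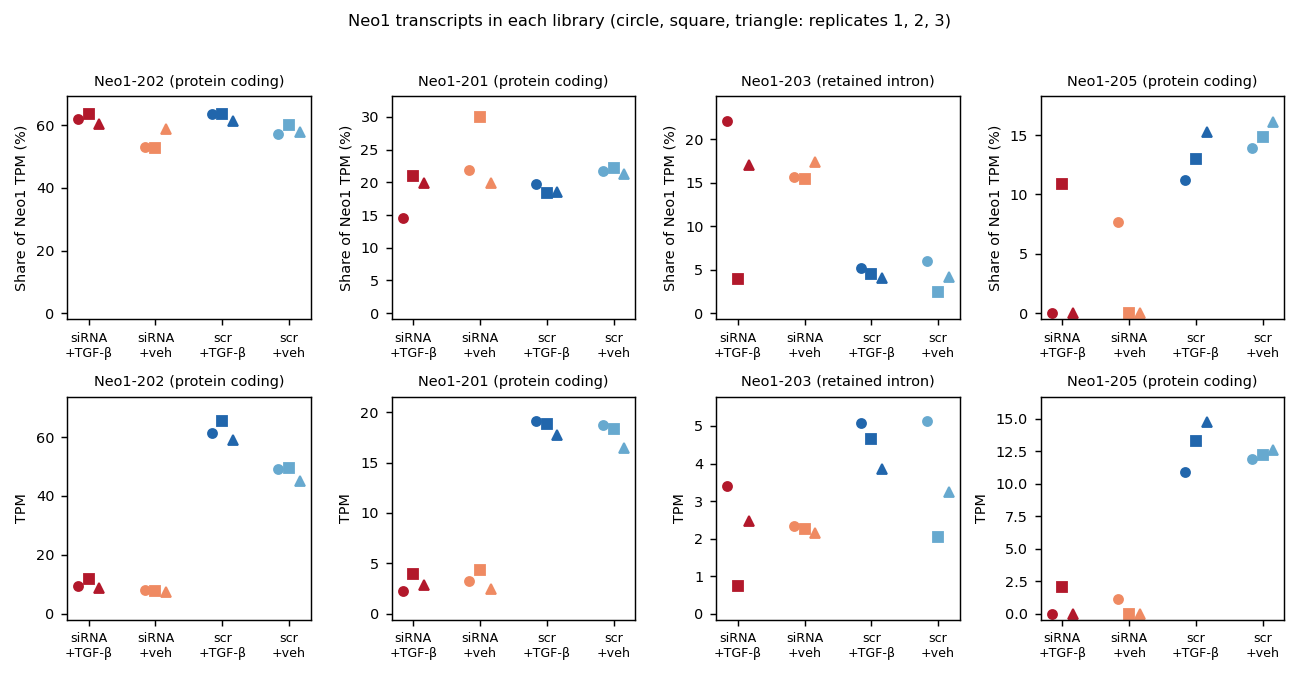
Share of the summed TPM of Neo1 (top) and TPM (bottom) of 4 of its transcripts in each library. Neo1-202 lies at 7.24 to 11.8 TPM in siRNA libraries and 45.2 to 65.3 TPM in scramble libraries, with a share of 52.6% to 63.5% throughout, and Neo1-205 is at 0 in 4 of 6 siRNA libraries.

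Netrin-1 (Ntn1), a secreted ligand of neogenin and the UNC5 receptors, lies on chromosome 11 from 68209364 to 68400823 on the minus strand. It had 633, 612 and 588 normalized counts in siRNA + TGF-β and 559.7, 562 and 636 in siRNA + vehicle. In scramble cells Ntn1 had 1742, 1521 and 1522 with TGF-β and 2035, 1822 and 2061 with vehicle. Its siRNA libraries were all below its scramble libraries, at −1.38 ± 0.08 (adjusted p = 1.1e-06) under TGF-β and −1.75 ± 0.08 (adjusted p = 2.5e-07) in vehicle. TGF-β in scramble cells gave −0.31 ± 0.08 (adjusted p = 0.0128, and 0.00502 with the block), which also passed without library 3 of siRNA + vehicle or library 1 of scramble + TGF-β (adjusted p = 0.0081 to 0.00838). Ntn4, which binds laminin and had the highest netrin mean over the 12 libraries, had group means of 27.5 and 14.2 TPM in siRNA cells with TGF-β and vehicle, against 26.3 and 14.6 in scramble cells. It was not called, with 1.04 ± 0.32 (adjusted p = 0.0306, and 7.1e-05 with the block) for TGF-β in siRNA cells and 0.91 ± 0.32 (adjusted p = 0.0504, and 2.2e-04 with the block) in scramble cells. In scramble + vehicle Ntn1, at 26.8 TPM, was above Ntn4. Ntn3, whose exons overlap those of Tbc1d24, had group means of 0.482 to 1.38 TPM and was not called, with −1.03 ± 0.42 (adjusted p = 0.0786, and 0.0035 with the block) for siRNA under TGF-β.

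Unc5b, a repulsive netrin receptor also known from endothelium, had 18983, 16768 and 18538 normalized counts in siRNA + TGF-β and 11522, 9199 and 8578 in siRNA + vehicle. In scramble cells Unc5b had 17594, 14957 and 15667 with TGF-β and 15350, 14342 and 11068 with vehicle. The siRNA + TGF-β libraries were all above the siRNA + vehicle libraries. TGF-β raised it in siRNA cells by 0.89 ± 0.14 (adjusted p = 8.1e-04), with 0.24 ± 0.14 (adjusted p = 0.206) in scramble cells and a difference of the responses of 0.65 ± 0.19 (adjusted p = 0.188). With siRNA in vehicle the value was −0.48 ± 0.14 (adjusted p = 0.0175, and 0.00159 with the block), which also passed without library 1 of siRNA + vehicle or library 3 of scramble + vehicle (adjusted p = 0.00375 to 0.0062). Unc5c, another repulsive netrin receptor, had 224, 269 and 125 normalized counts in siRNA + TGF-β and 219, 405 and 166 in siRNA + vehicle. In scramble cells Unc5c had 561, 823 and 411 with TGF-β and 843, 982 and 574 with vehicle. Every siRNA library was below every scramble library of the same medium, and library 2 was the highest of each group. With siRNA the values were −1.53 ± 0.38 (adjusted p = 0.0083, and 3.5e-06 with the block) under TGF-β and −1.61 ± 0.38 (adjusted p = 0.00614, and 2.1e-06 with the block) in vehicle.

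The Unc5c call under TGF-β was lost without any 1 of the libraries except library 2 and 3 of siRNA + vehicle, library 3 of scramble + TGF-β and library 3 of scramble + vehicle (adjusted p = 0.0108 to 0.0384), and that in vehicle without library 1 or 3 of siRNA + vehicle, library 1 of scramble + TGF-β or library 1 or 2 of scramble + vehicle (adjusted p = 0.0101 to 0.0278). A length offset ended both (adjusted p = 0.0161 and 0.0195). The other UNC5 receptors, Unc5a at 1.33 to 2.3 TPM and Unc5d at 0.00981 to 0.0255 TPM, were not called. With siRNA under TGF-β Unc5a gave 0.63 ± 0.18 (adjusted p = 0.0183, and 0.00276 with the block).

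Of the 20 semaphorins, 5 were lower (25%) and 1 higher (5%) with siRNA under TGF-β, and the same numbers in vehicle, against 11.3% and 13% of all genes under TGF-β and 11.2% and 13.4% in vehicle. TGF-β raised 3 (15%) and lowered 1 (5%) in siRNA cells, as many as in scramble cells, against 9.14% and 6.6% of all genes in siRNA cells and 10.5% and 7.94% in scramble cells. Sema7a, a semaphorin held in the membrane by a lipid anchor, which binds plexin C1 and integrins, lies on chromosome 9 from 57940112 to 57962865 on the plus strand. It had 774, 705 and 1623 normalized counts in siRNA + TGF-β and 108, 103 and 89.5 in siRNA + vehicle. In scramble cells Sema7a had 350.4, 305 and 619.6 with TGF-β and 63.2, 112 and 76.2 with vehicle. The TGF-β libraries did not overlap with the vehicle libraries, and library 3 was the highest of both TGF-β groups. TGF-β raised it by 3.37 ± 0.38 (adjusted p = 1.2e-04) in siRNA cells and 2.35 ± 0.38 (adjusted p = 9.8e-04) in scramble cells, the scramble value not called by limma-voom (adjusted p = 0.0116). With siRNA under TGF-β it gave 1.28 ± 0.34 (adjusted p = 0.012, and 0.00218 with the block), which also passed without library 2 of siRNA + TGF-β or library 3 of scramble + TGF-β (adjusted p = 0.00491 to 0.00784), and the difference of the TGF-β responses was 1.02 ± 0.52 (adjusted p = 0.477).

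Sema3d, a secreted class 3 semaphorin, had the highest mean TPM of the family over the 12 libraries, although in siRNA + vehicle Sema3f (37.2 TPM) was above it (25.3). Sema3d had 4288, 3870 and 3282 normalized counts in siRNA + TGF-β and 2227, 1933 and 2469 in siRNA + vehicle. In scramble cells Sema3d had 6187, 5323 and 6359 with TGF-β and 5527, 5648 and 7420 with vehicle. The siRNA + vehicle libraries were the lowest of the 12. Sema3d was lower with siRNA, at −1.49 ± 0.14 (adjusted p = 1.8e-05) in vehicle and at −0.64 ± 0.14 (adjusted p = 0.00376) under TGF-β, the second lost without library 2 or 3 of siRNA + TGF-β or library 1 or 3 of scramble + TGF-β (adjusted p = 0.0121 to 0.0153). TGF-β raised it in siRNA cells by 0.79 ± 0.14 (adjusted p = 0.0019), against −0.06 ± 0.14 (adjusted p = 0.797) in scramble cells. The difference of the responses was 0.84 ± 0.20 (adjusted p = 0.0984), and DESeq2 called it (adjusted p = 0.00544).

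Sema3c, a secreted semaphorin known from outflow tract development, had 466, 696 and 328 normalized counts in siRNA + TGF-β and 708, 851 and 834 in siRNA + vehicle. In scramble cells Sema3c had 1238, 1748 and 1894 with TGF-β and 1592, 1662 and 1600 with vehicle. Every siRNA library was below every scramble library. The drop was −1.71 ± 0.23 (adjusted p = 1.8e-04) under TGF-β and −1.02 ± 0.23 (adjusted p = 0.00441) in vehicle, the second lost without any library of siRNA + vehicle or any library of scramble + vehicle (adjusted p = 0.0114 to 0.0206). TGF-β in siRNA cells gave −0.68 ± 0.23 (adjusted p = 0.044), which passed only without library 2 of siRNA + TGF-β (adjusted p = 0.00401). Sema3e, which binds plexin D1 without a neuropilin, had 81.5, 108 and 179 normalized counts in siRNA + TGF-β and 30.4, 49.7 and 58.4 in siRNA + vehicle. In scramble cells Sema3e had 315, 412 and 733 with TGF-β and 122, 156 and 244 with vehicle. Each siRNA group was below the scramble group of its medium, and library 3 was the highest of each group. It was lower, at −1.99 ± 0.39 (adjusted p = 0.00208) under TGF-β, lost without library 1 or 2 of siRNA + TGF-β (adjusted p = 0.0103 to 0.011), and at −1.89 ± 0.42 (adjusted p = 0.00427) in vehicle, lost without any library of siRNA + vehicle or library 2 or 3 of scramble + vehicle (adjusted p = 0.01 to 0.0211) and with limma-voom (adjusted p = 0.0292). TGF-β gave 1.39 ± 0.42 (adjusted p = 0.0273, and 1.5e-05 with the block) in siRNA cells and 1.49 ± 0.39 (adjusted p = 0.013, and 5.9e-06 with the block) in scramble cells, the scramble value also passing without library 3 of siRNA + TGF-β or library 3 of scramble + vehicle (adjusted p = 0.00813 to 0.0098).

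Sema6d, a transmembrane semaphorin that binds plexin A1, had 748, 682 and 472 normalized counts in siRNA + TGF-β and 1356, 1260 and 1197 in siRNA + vehicle. In scramble cells Sema6d had 1355, 1048 and 813 with TGF-β and 2282, 1897 and 1828 with vehicle. TGF-β lowered it, at −1.003 ± 0.19 (adjusted p = 0.00293) in siRNA cells and −0.90 ± 0.19 (adjusted p = 0.00461) in scramble cells, with no overlap in either. The first call was lost without library 1 of siRNA + vehicle (adjusted p = 0.0123) and the second without library 2 or 3 of scramble + TGF-β or library 1 or 2 of scramble + vehicle (adjusted p = 0.0127 to 0.02). With siRNA it was lower under TGF-β, at −0.76 ± 0.19 (adjusted p = 0.00959), a call lost without any 1 of the libraries except library 1 of siRNA + TGF-β and library 3 of scramble + TGF-β (adjusted p = 0.0104 to 0.044), with limma-voom (adjusted p = 0.0111), a length offset (0.0148) and thinned counts (0.013). In vehicle the value was −0.66 ± 0.19 (adjusted p = 0.0186, and 3.8e-04 with the block), which also passed without library 3 of siRNA + TGF-β or library 3 of scramble + TGF-β (adjusted p = 0.00715 to 0.00962).

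Sema4c, a transmembrane ligand of plexin B2, had 1382, 1281 and 1391 normalized counts in siRNA + TGF-β and 1012, 971 and 882 in siRNA + vehicle. In scramble cells Sema4c had 887, 862 and 820.5 with TGF-β and 732, 874 and 655 with vehicle. The siRNA + TGF-β libraries were the highest 3 of the 12. It was higher with siRNA under TGF-β, by 0.66 ± 0.10 (adjusted p = 3.3e-04), and in vehicle the value was 0.34 ± 0.10 (adjusted p = 0.0178, and 0.00772 with the block), which also passed without library 2 of scramble + vehicle (adjusted p = 0.0026). TGF-β raised it in siRNA cells by 0.50 ± 0.10 (adjusted p = 0.00298), a call lost without library 1 or 3 of siRNA + TGF-β or library 2 or 3 of siRNA + vehicle (adjusted p = 0.0101 to 0.0114) and with a length offset (adjusted p = 0.0128). Sema5a, a transmembrane semaphorin with thrombospondin repeats, had 756, 822 and 795 normalized counts in siRNA + TGF-β and 586, 809.7 and 999.8 in siRNA + vehicle. In scramble cells Sema5a had 1054, 1114 and 1558 with TGF-β and 1309, 1297 and 1389 with vehicle. No siRNA library reached the lowest scramble library. The siRNA value was −0.73 ± 0.18 (adjusted p = 0.00743) in vehicle, lost without any 1 of the libraries except library 3 of siRNA + TGF-β, library 3 of siRNA + vehicle and library 1 and 3 of scramble + TGF-β (adjusted p = 0.0101 to 0.0229) and with a length offset (adjusted p = 0.0125), and −0.65 ± 0.18 (adjusted p = 0.014, and 0.0017 with the block) under TGF-β, which also passed without library 1 or 3 of siRNA + vehicle (adjusted p = 0.00471 to 0.0069).

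Sema4f and Sema5b, both transmembrane, were called on few reads. Sema4f had 49, 61 and 47 estimated counts in siRNA + TGF-β and 8, 11 and 38 in siRNA + vehicle. In scramble cells Sema4f had 8, 12 and 18 with TGF-β and 0, 2 and 2 with vehicle. It was higher with siRNA in vehicle, at 3.33 ± 0.69 (adjusted p = 0.00293), lost without library 3 of siRNA + vehicle or library 1 of scramble + vehicle (adjusted p = 0.0102 to 0.0131), and rose with TGF-β in scramble cells by 3.19 ± 0.71 (adjusted p = 0.00602), lost without library 2 or 3 of scramble + TGF-β or any library of scramble + vehicle (adjusted p = 0.0122 to 0.0236) and with limma-voom (adjusted p = 0.011). Sema5b had 1, 2 and 1 estimated counts in siRNA + TGF-β and 0, 0 and 0 in siRNA + vehicle. In scramble cells Sema5b had 11, 11 and 10 with TGF-β and 2, 2 and 3 with vehicle. Its highest group was scramble + TGF-β. It was lower with siRNA under TGF-β, at −3.52 ± 0.51 (adjusted p = 6.0e-04), lost with a length offset (adjusted p = 0.0335), and was called in vehicle (adjusted p = 0.00425, and 0.0111 with the block), where no fold is given because both groups were at or under 3 counts per library. TGF-β in scramble cells gave 2.19 ± 0.48 (adjusted p = 0.00765, and 0.0147 with the block). The vehicle call was lost without any library of siRNA + vehicle or library 3 of scramble + vehicle (adjusted p = 0.0129 to 0.0266), and the TGF-β call without any 1 of the libraries except library 2 of siRNA + TGF-β and any library of siRNA + vehicle (adjusted p = 0.0102 to 0.0354). A length offset (0.0173 and 0.122) and thinned counts (0.0237 and 0.0284) ended the vehicle and the TGF-β call, DESeq2 ended the first (adjusted p = 0.0166), and no count minimum the second (adjusted p = 0.0162).

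The other 11 semaphorins were not called, and 8 of them passed with the block in at least 1 comparison. The block raised calls over all genes too, from 2838 to 4825 for TGF-β in siRNA cells and from 3324 to 5125 in scramble cells. The share of all uncalled genes that passed with the block was not taken. Sema3f, a secreted semaphorin with the highest mean of the 11 at group means of 16.6 to 37.2 TPM, gave −1.14 ± 0.37 (adjusted p = 0.0393, and 4.6e-05 with the block) for TGF-β in siRNA cells and −0.75 ± 0.38 (adjusted p = 0.157, and 0.00133 with the block) in scramble cells. Sema4d, the ligand of plexin B1, gave −0.58 ± 0.22 (adjusted p = 0.0766, and 0.00196 with the block) and −0.53 ± 0.23 (adjusted p = 0.104, and 0.00438 with the block) in the same comparisons. The rest of the 8 were Sema3a, Sema4b, Sema4g, Sema6a, Sema6b and Sema6c.

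Plexins are the receptors of these ligands, and 7 of 9 were called in at least 1 comparison, against 43.1% of all genes. Plxna4, which pairs with neuropilins in class 3 signalling, lies on chromosome 6 from 32144268 to 32588192 on the minus strand. It had 1764, 2659 and 2813 normalized counts in siRNA + TGF-β and 571, 947 and 633 in siRNA + vehicle. In scramble cells Plxna4 had 6676, 6412 and 6532 with TGF-β and 3294, 2515 and 1808 with vehicle. It was called in all 4 pairwise comparisons, and each call held without any 1 library. TGF-β raised it by 1.75 ± 0.25 (adjusted p = 4.9e-04) in siRNA cells and 1.36 ± 0.24 (adjusted p = 0.0016) in scramble cells, and with siRNA it was lower, at −1.44 ± 0.24 (adjusted p = 7.4e-04) under TGF-β and −1.83 ± 0.25 (adjusted p = 1.8e-04) in vehicle. Plxna2, a receptor of class 6 and, with neuropilins, class 3 semaphorins, had 1547, 1554 and 977 normalized counts in siRNA + TGF-β and 1735, 1829 and 1254 in siRNA + vehicle. In scramble cells Plxna2 had 4788, 3708 and 3032 with TGF-β and 4919, 3840 and 2879 with vehicle. All 6 siRNA libraries lay under all 6 scramble libraries, at −1.50 ± 0.25 (adjusted p = 6.9e-04) under TGF-β and −1.27 ± 0.25 (adjusted p = 0.00189) in vehicle.

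Plxnb2, a receptor of class 4 semaphorins, had 20748, 19470 and 19512 normalized counts in siRNA + TGF-β and 16814, 16101 and 18792 in siRNA + vehicle. In scramble cells Plxnb2 had 13416, 12505 and 12080 with TGF-β and 13895, 13121 and 12386 with vehicle. Every siRNA library was above every scramble library, by 0.65 ± 0.08 (adjusted p = 7.5e-05) under TGF-β and 0.39 ± 0.08 (adjusted p = 0.00223) in vehicle, the second lost with a length offset (adjusted p = 0.0106). Its relative Plxnb1, the receptor of Sema4d, had 584, 695 and 430.3 normalized counts in siRNA + TGF-β and 444, 490.1 and 309.8 in siRNA + vehicle. In scramble cells Plxnb1 had 1699, 1622 and 1102 with TGF-β and 1054, 956 and 587 with vehicle. It was lower with siRNA, in the opposite direction to Plxnb2, at −1.37 ± 0.26 (adjusted p = 0.00165) under TGF-β and −1.07 ± 0.26 (adjusted p = 0.00781) in vehicle. The vehicle call was lost without any 1 of the libraries except library 2 and 3 of siRNA + TGF-β, library 3 of scramble + TGF-β and library 3 of scramble + vehicle (adjusted p = 0.0106 to 0.0333) and with limma-voom (adjusted p = 0.0114). TGF-β gave 0.46 ± 0.26 (adjusted p = 0.217, and 0.00128 with the block) in siRNA cells and 0.77 ± 0.26 (adjusted p = 0.0411, and 2.9e-05 with the block) in scramble cells.

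Plxnc1, the plexin that binds Sema7a, had 368, 286 and 216 normalized counts in siRNA + TGF-β and 756, 636 and 536 in siRNA + vehicle. In scramble cells Plxnc1 had 492, 412 and 317 with TGF-β and 1591, 1251 and 929 with vehicle. TGF-β libraries lay below vehicle libraries in each siRNA arm. TGF-β lowered it, at −1.14 ± 0.24 (adjusted p = 0.00493) in siRNA cells and −1.63 ± 0.24 (adjusted p = 6.3e-04) in scramble cells, the siRNA value lost without library 2 or 3 of siRNA + TGF-β or library 1 or 2 of siRNA + vehicle (adjusted p = 0.0155 to 0.0217) and with a length offset (adjusted p = 0.0147). With siRNA it was lower in vehicle, at −0.97 ± 0.24 (adjusted p = 0.00746), lost without any 1 of the libraries except library 1 and 3 of siRNA + TGF-β, library 1 and 3 of scramble + TGF-β and library 3 of scramble + vehicle (adjusted p = 0.0103 to 0.0325), and under TGF-β the value was −0.49 ± 0.24 (adjusted p = 0.151, and 2.1e-04 with the block). The macrophage sums given above were likewise lowest in siRNA + TGF-β and highest in scramble + vehicle, and macrophages are known to carry this plexin. Gene by gene, 2 of the 10 macrophage genes were higher and 0 lower with siRNA in vehicle (median log2 fold change 0.10). Under TGF-β 0 were higher and 1 lower with siRNA (median −0.01). TGF-β raised 0 and lowered 4 in siRNA cells (median −0.51), and raised 0 and lowered 3 in scramble cells (median −0.35). The part of macrophages in the Plxnc1 result was not tested.

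Plxnd1, the receptor of Sema3e and a plexin of endothelium, had 1966, 2157 and 2390 normalized counts in siRNA + TGF-β and 2346, 2391 and 2550 in siRNA + vehicle. In scramble cells Plxnd1 had 1243, 1321 and 965 with TGF-β and 1747, 1910 and 1471 with vehicle. It was higher with siRNA by 0.89 ± 0.13 (adjusted p = 2.5e-04) under TGF-β and 0.51 ± 0.12 (adjusted p = 0.00779) in vehicle, with no overlap in either medium, and TGF-β lowered it in scramble cells, at −0.54 ± 0.13 (adjusted p = 0.00752). The vehicle call was lost without any 1 of the libraries except library 1 and 3 of siRNA + TGF-β, library 2 and 3 of scramble + TGF-β and library 2 of scramble + vehicle (adjusted p = 0.0115 to 0.0321) and with RLE size factors (adjusted p = 0.0103), and the TGF-β call without any 1 of the libraries except library 1 and 3 of siRNA + TGF-β, library 2 of scramble + TGF-β and library 3 of scramble + vehicle (adjusted p = 0.0105 to 0.0346). A length offset ended all 3 calls (adjusted p = 0.0624, 0.0769 and 0.429). The share of its retained-intron transcript Plxnd1-204 was 43.9%, 11% and 40.3% in siRNA + TGF-β and 40.4%, 31.3% and 42% in siRNA + vehicle, against 27%, 43.1% and 36.5% in scramble + TGF-β and 30.2%, 36.6% and 0% in scramble + vehicle, and so jumped between replicates.

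Plxna1, a receptor of several semaphorin classes, had 11603, 12836 and 13504 normalized counts in siRNA + TGF-β and 8919, 9431 and 10542 in siRNA + vehicle. In scramble cells Plxna1 had 11080, 11363 and 11813 with TGF-β and 11284, 10785 and 10455 with vehicle. The siRNA + vehicle libraries tended to be low, though library 3 of them overlapped with scramble + vehicle. TGF-β raised it in siRNA cells by 0.39 ± 0.08 (adjusted p = 0.00389), a call lost without library 2 or 3 of siRNA + TGF-β or library 1 or 2 of siRNA + vehicle (adjusted p = 0.0137 to 0.0218) and with a length offset (adjusted p = 0.0398). Plxna3 and Plxnb3, at group means of 5.43 to 7.49 and 0.0547 to 0.176 TPM, were not called.

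Of the 8 ephrins, Efna5, Efnb2 and Efna3 were called in at least 1 comparison, against 43.1% of all genes. Efna5, held in the membrane by a lipid anchor, had 742, 825 and 459 normalized counts in siRNA + TGF-β and 991, 927 and 808 in siRNA + vehicle. In scramble cells Efna5 had 1732, 1475 and 1316 with TGF-β and 1672, 1618 and 1572 with vehicle. The siRNA libraries were all under the scramble libraries, at −1.16 ± 0.18 (adjusted p = 4.8e-04) under TGF-β and −0.84 ± 0.18 (adjusted p = 0.00362) in vehicle, the second lost without library 2 or 3 of siRNA + vehicle or library 1 or 2 of scramble + vehicle (adjusted p = 0.0102 to 0.0154). Efnb2, the transmembrane ephrin of arterial endothelium, had 777, 1083 and 947 normalized counts in siRNA + TGF-β and 682, 786 and 1027 in siRNA + vehicle. In scramble cells Efnb2 had 1549, 1689 and 2210 with TGF-β and 1065, 1212 and 1392 with vehicle. Every siRNA library was below every scramble library of the same medium. Efnb2 was lower with siRNA under TGF-β, at −0.96 ± 0.18 (adjusted p = 0.00172), and the values were −0.55 ± 0.18 (adjusted p = 0.0342, and 7.7e-04 with the block) in vehicle and 0.57 ± 0.18 (adjusted p = 0.0331, and 8.2e-04 with the block) for TGF-β in scramble cells. Efna3, under 100 counts in every group mean, rose with TGF-β by 1.04 ± 0.21 (adjusted p = 0.00385) in siRNA cells and 1.84 ± 0.23 (adjusted p = 2.2e-04) in scramble cells and was higher with siRNA in vehicle, by 0.90 ± 0.23 (adjusted p = 0.00938).

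The Efna3 call for TGF-β in siRNA cells was lost without library 2 of siRNA + TGF-β or library 1 or 2 of siRNA + vehicle (adjusted p = 0.01 to 0.0191) and with thinned counts (adjusted p = 0.0226). Its siRNA call was lost without any 1 of the libraries except library 2 of siRNA + TGF-β, library 1 of siRNA + vehicle and library 1 of scramble + vehicle (adjusted p = 0.0114 to 0.0359), and with RLE size factors (0.0102), no count minimum (0.0121), limma-voom (0.0224) and a length offset (0.0232). The other 5 ephrins were not called. Of these Efnb1, a transmembrane ephrin at group means of 19.3 to 24.6 TPM, gave 0.45 ± 0.15 (adjusted p = 0.0435, and 0.0039 with the block) for TGF-β in siRNA cells, and Efna2 gave 0.64 ± 0.25 (adjusted p = 0.0671, and 0.00729 with the block) for siRNA in vehicle.

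Of the 11 Eph receptors tested, 4 were lower with siRNA under TGF-β (36.4%), against 11.3% of all genes, and 1 in vehicle (9.09%), against 11.2%, with 0 higher in either. TGF-β raised 0 in siRNA cells, against 9.14% of all genes, and 1 in scramble cells (9.09%), against 10.5%. With the block 4 were lower with siRNA in vehicle (36.4%), against 16.2% of all genes, and TGF-β raised 5 in siRNA cells (45.5%), against 14.2%, and 4 in scramble cells (36.4%), against 15.4%. Epha7, a receptor of A-type ephrins such as Efna5, lies on chromosome 4 from 28813131 to 28967499 on the plus strand. It had 696, 591 and 421 normalized counts in siRNA + TGF-β and 867, 865 and 858 in siRNA + vehicle. In scramble cells Epha7 had 2406, 2147 and 1666 with TGF-β and 3363, 2884 and 2458 with vehicle. Both siRNA groups lay wholly under the scramble groups, at −1.86 ± 0.18 (adjusted p = 2.0e-05) under TGF-β and −1.75 ± 0.18 (adjusted p = 3.3e-05) in vehicle, and both calls held without any 1 library. TGF-β gave −0.60 ± 0.18 (adjusted p = 0.029, and 6.8e-04 with the block) in siRNA cells and −0.49 ± 0.18 (adjusted p = 0.0579, and 0.00236 with the block) in scramble cells.

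Ephb6, an Eph receptor without kinase activity, had 590.4, 541 and 701 normalized counts in siRNA + TGF-β and 404, 398 and 279 in siRNA + vehicle. In scramble cells Ephb6 had 958, 957 and 1206 with TGF-β and 388, 364 and 236 with vehicle. Scramble + TGF-β was the highest group, with no overlap. TGF-β raised it in scramble cells by 1.66 ± 0.20 (adjusted p = 2.0e-04), and in siRNA cells the value was 0.77 ± 0.20 (adjusted p = 0.0132, and 0.00839 with the block), which also passed without library 3 of scramble + vehicle (adjusted p = 0.00492). The difference of the responses was −0.89 ± 0.28 (adjusted p = 0.21). With siRNA it was lower under TGF-β, at −0.77 ± 0.19 (adjusted p = 0.00858), and 0.12 ± 0.20 (adjusted p = 0.68) in vehicle. The call under TGF-β was lost without any 1 of the libraries except library 3 of siRNA + TGF-β, library 3 of siRNA + vehicle and library 1 and 3 of scramble + vehicle (adjusted p = 0.0119 to 0.0363), with a length offset (0.154) and with thinned counts (0.0111). The share of the short transcript Ephb6-203 was 50.3%, 39.3% and 44.1% in siRNA + TGF-β and 25.9%, 0% and 34.6% in siRNA + vehicle, against 32.5%, 30% and 44.9% in scramble + TGF-β and 22%, 45.8% and 0% in scramble + vehicle, and so varied between replicates.

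Ephb4, the receptor of Efnb2 and a marker of veins, had 1341, 1516 and 1091 normalized counts in siRNA + TGF-β and 1376, 1520 and 1348 in siRNA + vehicle. In scramble cells Ephb4 had 2198, 1957 and 1809 with TGF-β and 1934, 1904 and 1721 with vehicle. Both siRNA groups were wholly under the scramble groups. It was lower with siRNA under TGF-β, at −0.59 ± 0.11 (adjusted p = 0.00187), as its ligand was, and in vehicle the value was −0.39 ± 0.11 (adjusted p = 0.02, and 0.00196 with the block), which also passed without library 3 of siRNA + TGF-β (adjusted p = 0.00537). Epha1 had 72.9, 86.4 and 119.6 normalized counts in siRNA + TGF-β and 69.7, 67.5 and 89.5 in siRNA + vehicle. In scramble cells Epha1 had 149, 176 and 293 with TGF-β and 96.9, 85.6 and 146 with vehicle. Epha1 was lower with siRNA under TGF-β, at −1.15 ± 0.29 (adjusted p = 0.00903), with no overlap, and TGF-β in scramble cells gave 0.91 ± 0.29 (adjusted p = 0.0336, and 5.0e-04 with the block). The siRNA call was lost without any 1 of the libraries except library 3 of siRNA + TGF-β, library 1 of scramble + TGF-β and library 3 of scramble + vehicle (adjusted p = 0.0106 to 0.0423), with a length offset (0.0113) and with thinned counts (0.0236). Its exons overlap those of the abundant gene Zyx on the other strand, and reads in that overlap cannot be told apart without strand. Zyx was lower with siRNA as well, at −0.33 ± 0.08 (adjusted p = 0.00501) under TGF-β and −0.65 ± 0.08 (adjusted p = 6.4e-05) in vehicle. The Epha1 value in vehicle was −0.53 ± 0.30 (adjusted p = 0.199). The part of Zyx reads in the Epha1 result was not tested.

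Ephb3, the Eph receptor with the highest mean over the 12 libraries, was not called, at group means of 44.1 and 45.2 TPM in siRNA cells with TGF-β and vehicle, against 37.5 and 38.2 in scramble cells, with 0.33 ± 0.31 (adjusted p = 0.468, and 0.00808 with the block) for siRNA under TGF-β. In scramble + vehicle the mean of Epha7, at 43.4 ± 7.49 TPM (SD), was above that of Ephb3 (38.2 ± 12.7), by less than the larger SD. Epha4, which binds ephrins of both types, gave 1.37 ± 0.35 (adjusted p = 0.0129, and 5.1e-05 with the block) for TGF-β in siRNA cells and 0.78 ± 0.34 (adjusted p = 0.106, and 0.0015 with the block) in scramble cells. Epha3, another receptor of A-type ephrins, gave −1.57 ± 0.47 (adjusted p = 0.0213, and 3.6e-05 with the block) with siRNA in vehicle. Epha2 gave 0.70 ± 0.33 (adjusted p = 0.14, and 1.5e-04 with the block) and Ephb2 0.62 ± 0.22 (adjusted p = 0.0578, and 0.0073 with the block) for TGF-β in siRNA cells. Epha5 and Ephb1 were called neither with nor without the block.

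**Figure D5:**
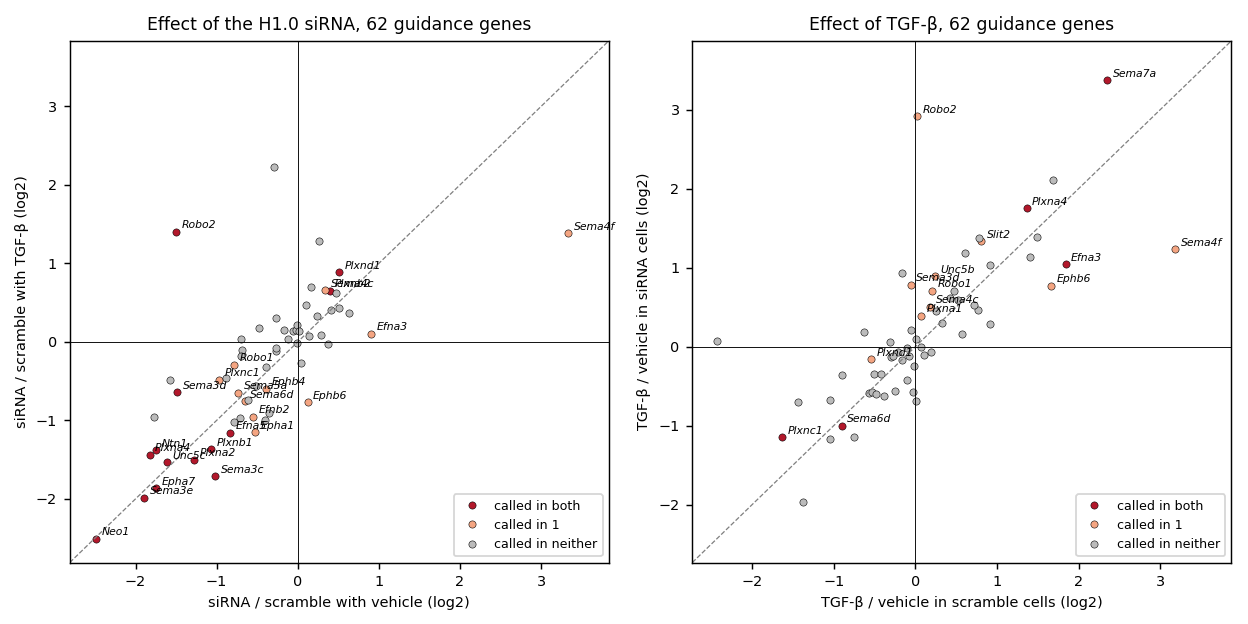
Log2 effect of the siRNA under TGF-β and in vehicle (left) and of TGF-β in siRNA and scramble cells (right) for 62 genes, without Sema5b and Dcc. Neo1 lies near the line of equal effects on the left (−2.51 under TGF-β and −2.49 in vehicle), and Robo2 lies off it in both panels (1.40 and −1.50 on the left, 2.92 in siRNA cells and 0.02 in scramble cells on the right).

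Likeness of pattern was taken as Pearson's r of log2 CPM over the 12 libraries, which share groups and replicate numbers, as a description. Of the 3 genes with the widest called changes, Sema5b was most like Efnb2 (r = 0.905), Sema3e (0.905) and Plxnb1 (0.893), Sema7a most like Ntn4 (0.842), Efna3 (0.829) and Plxna1 (0.771), and Sema4f most like Efna3 (0.803), Sema4c (0.766) and Sema7a (0.750). Sema5b held 0 to 11 and Sema4f 0 to 61 estimated counts per library, so their r values rest on few reads. Robo2 and Neo1 were added after their values were seen. Robo2 was most like Plxna1 (0.898) and Unc5b (0.820), and Neo1 most like its ligand Ntn1 (0.963) and Plxna2 (0.915).

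Of 84 listed co-receptors, other ligands and effectors of these pathways, 82 were tested. With siRNA 16 were lower (19.5%) and 20 higher (24.4%) under TGF-β, against 11.3% and 13% of all genes, with a median of −0.05. In vehicle 23 were lower (28%) and 16 higher (19.5%), against 11.2% and 13.4%, with a median of −0.17. TGF-β raised 22 (26.8%) and lowered 7 (8.54%) in siRNA cells, against 9.14% and 6.6%, and raised 13 (15.9%) and lowered 6 (7.32%) in scramble cells, against 10.5% and 7.94%.

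The 8 with the widest called changes at a group mean of at least 100 normalized counts were Ngef, Ablim3, Chn2, Flrt3, Dpysl4, Ntng2, Pak3 and Rac1. Ngef, the exchange factor ephexin that EphA receptors act through, had 234 ± 40.8 normalized counts in siRNA + TGF-β and 9.93 ± 2.74 in siRNA + vehicle, against 631 ± 41.3 in scramble + TGF-β and 29.5 ± 10.9 in scramble + vehicle (SD, n = 3). TGF-β raised it by 4.50 ± 0.27 (adjusted p = 3.2e-06) in siRNA cells and 4.42 ± 0.24 (adjusted p = 6.5e-06) in scramble cells, and with siRNA it was lower, at −1.43 ± 0.20 (adjusted p = 2.1e-04) under TGF-β and −1.51 ± 0.30 (adjusted p = 0.00236) in vehicle. Ablim3, a LIM protein that binds actin, had 106 ± 59.1 normalized counts in siRNA + TGF-β and 535 ± 26.6 in siRNA + vehicle, against 33.4 ± 10.3 in scramble + TGF-β and 154 ± 21.9 in scramble + vehicle. TGF-β lowered it, at −2.34 ± 0.38 (adjusted p = 0.00106) in siRNA cells and −2.21 ± 0.43 (adjusted p = 0.00263) in scramble cells, and with siRNA it was higher by 1.67 ± 0.42 (adjusted p = 0.00939) under TGF-β and 1.79 ± 0.37 (adjusted p = 0.00287) in vehicle.

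Ntng2 is a lipid-anchored relative of the netrins, and Dpysl4 belongs to the collapsin response mediator proteins, which act downstream of semaphorins. Ntng2 gave 1.69 ± 0.17 (adjusted p = 2.0e-05) under TGF-β and 1.78 ± 0.16 (adjusted p = 1.4e-05) in vehicle, and Dpysl4 1.09 ± 0.17 (adjusted p = 4.3e-04) and 1.78 ± 0.17 (adjusted p = 1.6e-05). Chn2, a chimaerin that switches Rac off, gave −1.98 ± 0.25 (adjusted p = 1.1e-04) and −1.52 ± 0.26 (adjusted p = 7.6e-04), and Flrt3, a membrane ligand of UNC5 receptors, −1.73 ± 0.22 (adjusted p = 1.3e-04) and −1.78 ± 0.23 (adjusted p = 1.5e-04) in the same media. The small GTPase Rac1, which many guidance receptors act on, had 10689 ± 393 normalized counts in siRNA + TGF-β and 10260 ± 204 in siRNA + vehicle, against 3937 ± 222 in scramble + TGF-β and 4208 ± 442 in scramble + vehicle. It was higher with siRNA by 1.44 ± 0.08 (adjusted p = 7.6e-07) under TGF-β and 1.29 ± 0.08 (adjusted p = 1.2e-06) in vehicle, while Pak3, a kinase that binds active Rac, was lower, at −1.45 ± 0.10 (adjusted p = 2.7e-06) and −1.52 ± 0.10 (adjusted p = 2.2e-06).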

How the data were processed

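RNA-seq of 12 libraries was analysed, and ChIP-seq was not used here. The study's methods name rRNA depletion, paired-end sequencing and Salmon on an index of mm10 transcripts, and DESeq2 for its tests. For each transcript the authors deposited an estimated count, which is Salmon's division of the reads and need not be whole, a TPM scaled to length and library, and an effective length. Whether counting used strand is not given in the sources used here.

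Of 117135 transcripts, 115973 matched GENCODE M21 (GRCm38) and held 99.54% to 99.6% of the counts. Estimated counts were summed per gene and rounded. Genes reaching 10 counts in total were fitted with TMM factors and 1 coefficient per group in edgeR 4.0.16 (R 4.3.3), tested by quasi-likelihood, and adjusted over all 18028 genes after Benjamini and Hochberg. A call is an adjusted p under 0.01. The minimum and threshold follow the study. The SE is the size of the log2 fold change over the square root of F. Normalized counts are TMM CPM times the mean library total. The fit was tested on simulated data.

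The alternatives were no or a stricter count minimum, RLE factors, TMM without the 1% most abundant genes, an offset for transcript length, counts thinned to the lowest total, limma-voom (limma 3.58.1), DESeq2 1.42.0, a replicate block, and leaving out each library.

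The 3 libraries of a group are biological replicates, which the study defines as other animals or other cell isolations. Same-numbered libraries of different groups deviated together in all 18 pairs (r = 0.113 to 0.612 over 11453 genes, against -0.569 to 0.290 for other numbers). Deviations were taken from the mean of the group and cancel within it, so the range for other numbers is not independent of that for equal numbers. These ranges overlap, and library 1 of scramble + vehicle had r = 0.113 with library 1 of siRNA + vehicle and 0.197 with library 2. The labels give only replicate numbers, so whether equal numbers mark paired cells is not known. The main fit holds no block, and the block is given as an alternative. No replicates agreed within sampling noise (a chi-square of 9.41 to 69.3 for each degree of freedom).

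Members and lists were chosen with earlier results of these data known. Genes called in at least 1 of 5 comparisons with a group mean of at least 100 normalized counts (27 genes) are given in every library, other called genes by fold change and p, and uncalled genes by range, or by name where abundant or a partner of a called one. Of the listed pathway genes at that level, the 8 with the widest called change in any comparison are named. Promoters are from RefSeq (GRCm38.p6).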

Additional observations from a re-analysis of the deposited data

Results flagged for a closer look

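The TGF-β response of Robo2 differed between siRNA and scramble cells by 2.90 ± 0.31 on the log2 scale (SE, adjusted p = 0.00592, edgeR quasi-likelihood test), and of 18028 genes 6 passed this test in the higher and 2 in the lower direction. All 3 siRNA + TGF-β libraries exceeded all 3 siRNA + vehicle libraries, while the scramble + TGF-β and scramble + vehicle libraries overlapped. With the replicate number as a block it passed as well (adjusted p = 0.00134), as did 74 genes in the higher direction, Robo2 included, and 44 in the lower. The Robo2 call was lost with limma-voom (adjusted p = 0.0112) and with a length offset (adjusted p = 0.0389). It was also lost without any 1 of 10 libraries (adjusted p = 0.0103 to 0.0331).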

How the results depend on the processing

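None of the 63 calls of guidance genes over the 5 comparisons changed direction under an alternative. With a replicate block the calls numbered 25 for TGF-β in scramble cells, against 9 without, 34 for siRNA under TGF-β, against 21, 30 for siRNA in vehicle, against 20, and 26 for TGF-β in siRNA cells, against 12. The block ended 2 calls, both of Sema5b, and no other. DESeq2 gave 15 for TGF-β in scramble cells and 2 for the difference of the responses, which a length offset and limma-voom put at 0. Over all genes DESeq2 gave 4503 and 239 in these 2 comparisons, against 3324 and 8 in the main fit. Leaving out 1 library gave 5 to 11 calls for TGF-β in scramble cells, with 5 without library 1 or 2 of scramble + vehicle or library 3 of scramble + TGF-β. Calls over all genes then fell from 3324 to 1871, 1915 and 1976, in that order. For siRNA in vehicle leaving out 1 library gave 10 to 23, against 20 with all. There were 10 without library 3 of siRNA + vehicle, and 12 without library 2 of it or library 1 of scramble + vehicle. There were 13 without library 1 of siRNA + vehicle or library 2 of scramble + vehicle. Without any 1 of these libraries calls over all genes fell from 4445 to between 3325 and 3688. TGF-β in siRNA cells gave 7 to 13, with 7 without library 1 of siRNA + vehicle, where calls over all genes fell from 2838 to 1589. With siRNA under TGF-β there were 17 to 21. The difference of the responses gave 0 to 1, with 0 without any 1 of 10 libraries, all except library 3 of siRNA + vehicle and of scramble + vehicle. Without any 1 of those 10 libraries this difference was called for 0 to 2 of all genes, against 8 with all libraries.

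Of the 63 calls, 35 held without any 1 library, and the share that held in this way over all genes was not taken. A length offset ended 18, limma-voom 7, thinning 6, and RLE factors, no count minimum and the block 2 each. The cause was not tested in any of these cases. Sema5b and Sema4f were called on few reads, and of these 2 only Sema5b lost calls with counts thinned to the lowest total.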
